A study of Mus musculus with 15 samples.

Results

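The Myc, Max and Mxd network was followed through the liver transcriptomes of 15 female C57BL/6 mice by means of 8 genes named by symbol: the activators Myc and Mycl, the hubs Max and Mlx, and the repressors Mxd1, Mxi1, Mxd4 and Mnt. The 8 genes were found among 55450 Ensembl gene rows by matching each row's identifier to its symbol, and all 8 belonged to the 15808 genes with enough counts to be tested. The Adult group held 5 mice aged 6 months and the Old group 5 mice aged 22 months, both gavaged daily with corn oil as vehicle. The PDX group held 5 mice of 22 months gavaged with protectin DX, a lipid mediator made from docosahexaenoic acid, at 30 ng per g of body weight in corn oil. Gavage lasted 9 weeks by the sample labels, whereas the series text gives 8. By the paper the ages are those at the start of the study. Livers were taken at its end, when all mice were some months older. No mouse carried a transgene or deletion, whole liver RNA was sequenced, and no young mouse received PDX.

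Myc is a basic helix-loop-helix leucine zipper transcription factor that binds DNA only as a dimer with Max. The dimer recognises the E-box CACGTG and raises transcription of genes for ribosome production, nucleotide synthesis and growth. The proteins of the Mxd family and Mnt take Max for themselves, occupy the same sites and recruit the Sin3 and histone deacetylase corepressor complex. Mlx is a Max-like partner that also pairs with Mxd1, Mxd4 and Mnt, and with the glucose-sensing factors Mlxip and Mlxipl (ChREBP), which control glycolytic and lipogenic genes in hepatocytes. In resting liver Myc is low, and it is induced early when hepatocytes prepare to divide.

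The E-box bound by these proteins occurs in the promoters of some members, which are shown because the network's own recognition letters lie in them. RefSeq promoter sequences on GRCm38 were found for 7 of the 8 members, all but Myc, with 9 promoters in all. CACGTG, which reads the same on both strands, was present within the 250 bases before the start in 3 of the 9 promoters, those of Mlx, Mnt and Mxd4, and in 6.02% of all 32851 promoters. The first base of the motif lay 40 bases before the start in Mlx, 123 in Mnt and 219 in Mxd4. The stretches are written 5′ to 3′ along the gene, with the motif in capitals.
Mlx, chr11:101087040-101087289, plus strand: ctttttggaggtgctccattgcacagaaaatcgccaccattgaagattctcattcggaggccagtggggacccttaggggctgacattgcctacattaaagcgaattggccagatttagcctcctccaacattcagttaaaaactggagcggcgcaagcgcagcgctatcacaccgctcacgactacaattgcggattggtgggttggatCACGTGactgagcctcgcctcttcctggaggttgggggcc
Mnt, chr11:74830674-74830923, plus strand: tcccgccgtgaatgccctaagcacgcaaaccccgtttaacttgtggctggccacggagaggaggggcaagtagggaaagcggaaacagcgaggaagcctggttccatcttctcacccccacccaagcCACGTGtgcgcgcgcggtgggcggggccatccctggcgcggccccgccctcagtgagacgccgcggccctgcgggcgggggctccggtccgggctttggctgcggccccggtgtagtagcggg
Mxd4, chr5:34187711-34187960, minus strand: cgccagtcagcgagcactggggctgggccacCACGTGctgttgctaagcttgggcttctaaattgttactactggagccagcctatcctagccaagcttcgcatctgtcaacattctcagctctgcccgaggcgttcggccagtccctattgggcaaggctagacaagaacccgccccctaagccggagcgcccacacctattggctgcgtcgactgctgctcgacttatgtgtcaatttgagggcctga
A match of 6 letters is a description of the sequence, and binding was not measured. The promoter of Mlxipl that carries the motif holds it 98 bases before the start.

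Between 22424383 and 36070835 read pairs were counted per mouse. Hepatocyte markers were abundant in every mouse, with a summed level of 81536 to 214382 CPM (counts scaled to the size of each library) over 8 markers. The sum was lowest in O2, at 81536 CPM, and next lowest in O5, at 88318 CPM, against 125995 CPM or more in the others. The mean log2 CPM of these markers was 0.95 below the Adult mean in O2 and 0.08 below it in O5. The Old mice O2 and O5 stood apart from the other Old mice. In O2 the summed level of 7 markers of dividing cells was 146 CPM, against at most 18.3 CPM in the other 14 mice, that of 8 macrophage markers was 4210 CPM and that of 8 neutrophil and myeloid progenitor markers was 266 CPM. In O5 the macrophage sum was 304 CPM, the lowest of the Old group, and the sum of 6 stellate cell markers was 617 CPM, the highest of the Old group. By mean log2 CPM of the stellate markers O2 was higher, at 0.91 above the Adult mean against 0.65 in O5. Of these 6 markers 2 had a fold change below 0 in Old against Adult. The neutrophil and progenitor markers, Mpo and Elane among them, were all higher in Old than in Adult livers, 8 of 8 in edgeR's quasi-likelihood test at adjusted p under 0.05. In whole tissue, more cells of a type and more RNA per cell cannot be told apart, and whether blood cells or any other cell type carried the values below was not tested. The paper states that the mice were studied in batches, each killed on a single day. The labels name no batch, so none could be examined.

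None of the 8 members passed the threshold in any comparison. In Old against Adult livers 0 of 8 members were called by edgeR at adjusted p under 0.05, where 6.78% of all genes tested were called. At an unadjusted p under 0.05 the count was 2 of 8, Myc and Mnt, against 27.7% of all genes, and DESeq2 called 1 of 8, Myc, against 13.5% of the genes it tested. In PDX against Old livers 0 of 8 were called, against 0% of all genes, and this held at the threshold of 0.25 that the study used. There 0 of 8 members had an unadjusted p under 0.05, against 5.28% of all genes, and DESeq2 called 1 gene in all (0.00344% of those it tested), which was no member. In PDX against Adult livers 0 of 8 were called, against 2.66% of all genes. Mxd4 alone had an unadjusted edgeR p under 0.05 there, against 20.6% of all genes, and DESeq2 called none of the 8 against 7.36% of its genes. The members therefore gave no more calls than genes at large, and their account below is one of levels per mouse.

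**Figure D1:**
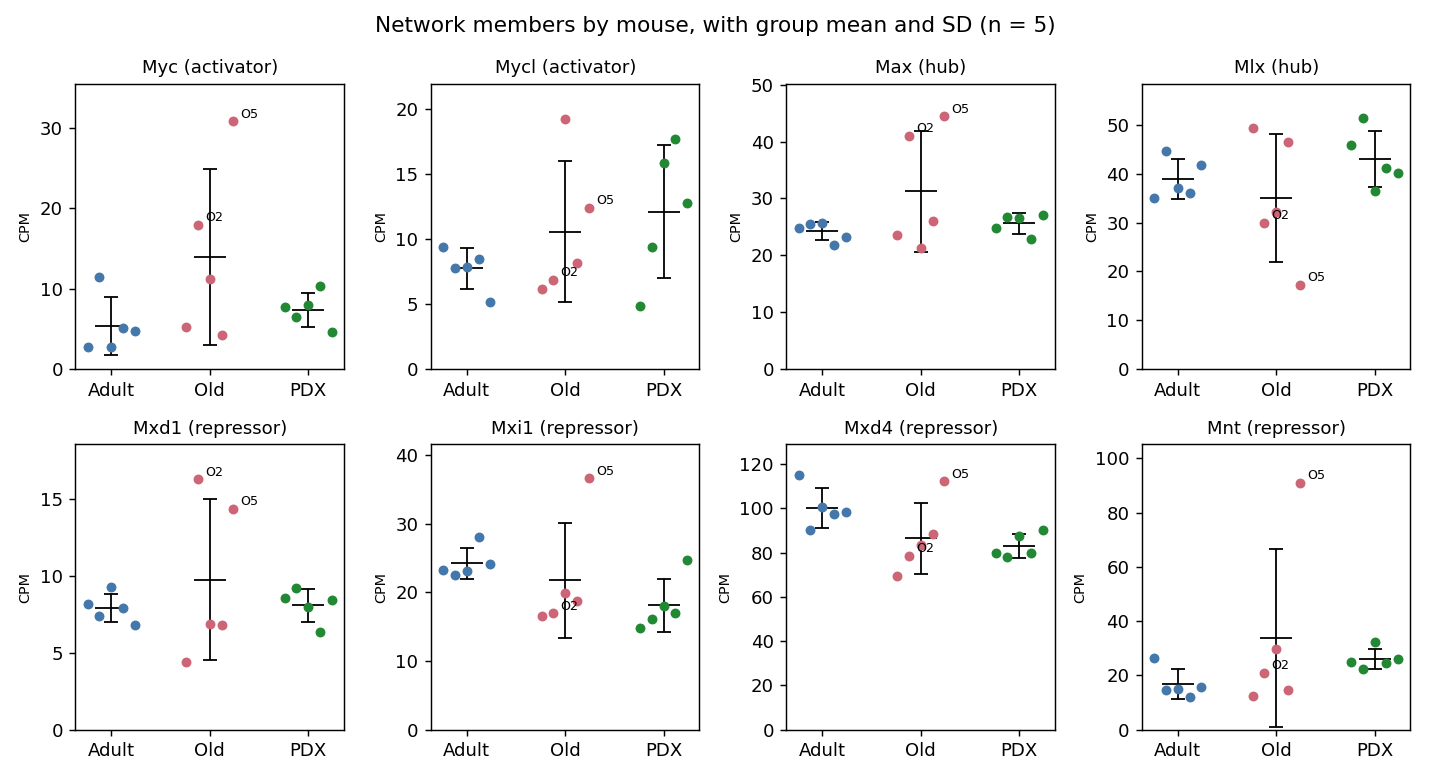
Level in CPM of the 8 network members on linear axes that start at 0, with 1 point per mouse and bars for the group mean ± SD (n = 5). Mice O2 and O5 lie above the other Old mice for Myc, Max and Mxd1, and O5 lies highest of the Old group for Mxi1, Mxd4 and Mnt and lowest for Mlx.

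Myc (ENSMUSG00000022346, chr15:61985391-61990374 on the plus strand of GRCm38) varied widely between mice. Its level in the Adult mice A1 to A5 was 2.73, 11.5, 2.78, 5.05 and 4.71 CPM. In the Old mice O1 to O5 it was 5.22, 18.0, 11.2, 4.20 and 30.8 CPM. In the PDX mice P1 to P5 it was 7.69, 6.46, 7.92, 10.3 and 4.54 CPM. O5, O2 and, among the young mice, A2 were high, O1, O3 and O4 lay within the Adult range, and the groups overlapped in all 3 comparisons. The Old mean was 13.9 ± 11.0 CPM (SD, n = 5) and the Adult mean 5.35 ± 3.59 CPM, a log2 fold change of 1.38 ± 0.51 (SE, adjusted p = 0.102, edgeR), with a 95% interval from 0.28 to 2.47. In DESeq2 the same log2 fold change of 1.39 passed the threshold (adjusted p = 0.0450), whereas an exact permutation test of log2 CPM over the 252 labelings of 5 against 5 mice gave p = 0.111. Without O2 and O5 together the difference was 0.37 on the log2 scale (adjusted p = 0.644, edgeR). These mice had the highest Myc levels of all, so leaving them out was bound to shrink the difference. Leaving out O5 alone gave 0.85, and leaving out A2 gave 1.86 with an adjusted p of 0.0504 in edgeR.

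In PDX livers Myc averaged 7.38 ± 2.11 CPM. No PDX mouse reached the Old mean, yet all 5 lay inside the Old range. The log2 fold change against Old was -0.91 (95% interval -1.99 to 0.17, adjusted p = 0.793, edgeR), and without O2 and O5 it turned to 0.11. Against Adult it was 0.46 (interval -0.62 to 1.55, adjusted p = 0.653, edgeR). The SD of Myc among the PDX mice was 28.5% of their mean, against 79.0% among the Old and 67.2% among the Adult mice, a description of spread that was not tested.

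Mycl (ENSMUSG00000028654, chr4:122995652-123002485, plus strand) encodes L-Myc, the other family member of the liver at an appreciable level. Its level ran from 5.14 to 9.39 CPM in Adult (median 7.89), from 6.16 to 19.3 CPM in Old (median 8.17) and from 4.85 to 17.7 CPM in PDX livers (median 12.8). In the Old group O3 was highest with 19.3 CPM and O5, first for Myc, was next with 12.4 CPM, while O2, second for Myc, had 6.88 CPM. In the PDX group P3, P4 and P5 had 15.8, 17.7 and 12.8 CPM, and P4 and P3 were also the highest for Myc. Of the PDX mice 4 of 5 lay above the highest Adult mouse, although P2 and A1 both had 9.39 CPM after rounding, and P1 lay below the lowest. PDX against Adult gave a log2 fold change of 0.65 ± 0.35 (SE, interval -0.10 to 1.39, adjusted p = 0.307, edgeR), that of Old against Adult was 0.45 (interval -0.29 to 1.20, adjusted p = 0.425, edgeR) and that of PDX against Old 0.20 (interval -0.54 to 0.94).

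Max (ENSMUSG00000059436, chr12:76937269-76962201, minus strand), the shared partner of activators and repressors, kept within 21.3 and 27.0 CPM in 13 of 15 mice. Adult mice A1 to A5 had 24.8, 25.6, 25.6, 21.9 and 23.2 CPM. Old mice O1 to O5 had 23.5, 41.1, 21.3, 26.0 and 44.4 CPM, and PDX mice P1 to P5 had 24.7, 26.7, 26.6, 22.9 and 27.0 CPM. O2 and O5 stood above every other mouse, and the SD was 34.1% of the mean in the Old group against 6.71% in Adult and 6.92% in PDX livers. The log2 fold change of Old against Adult was 0.37 ± 0.18 (SE, interval -0.01 to 0.75, adjusted p = 0.195, edgeR) and -0.025 without O2 and O5. PDX against Adult gave 0.08 (interval -0.30 to 0.46), and PDX against Old -0.29 (interval -0.67 to 0.09). A gene model on the same strand, Gm47218, overlaps Max, and its own counts reached 26 at most.

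Mlx (ENSMUSG00000017801, chr11:101087277-101092207, plus strand) ran opposite to Max in mouse O5. Its level was 35.1 to 44.7 CPM in Adult and 36.5 to 51.5 CPM in PDX livers, and in O1 to O5 it was 49.4, 30.0, 32.1, 46.6 and 17.2 CPM. O5 was the lowest of all 15 mice, O2 and O3 also lay below the Adult range, and O1 and O4 lay above it. Per kilobase of exon, Mlx exceeded Max in 14 of 15 mice, and O5 was the exception, with a log2 ratio of Max to Mlx of 0.52 against -1.70 to -1.35 in the Adult mice. Old against Adult gave a log2 fold change of -0.15 (interval -0.62 to 0.31, adjusted p = 0.683, edgeR), and it turned to 0.018 without O5. For PDX against Old it was 0.30 (interval -0.17 to 0.76) and for PDX against Adult 0.14 (interval -0.32 to 0.61).

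Mxd1 (ENSMUSG00000001156, chr6:86647042-86669161, minus strand), which elsewhere marks cells leaving the cell cycle, was the least abundant member per length. It spanned 6.83 to 9.26 CPM in Adult livers and 6.32 to 9.19 CPM in PDX livers. In O1 to O5 it was 4.37, 16.3, 6.90, 6.84 and 14.4 CPM, so O2 and O5 again stood above all others and O1 below. The log2 fold change of Old against Adult was 0.31 (interval -0.30 to 0.92, adjusted p = 0.517, edgeR), and it turned to -0.37 without O2 and O5. PDX and Adult means were 8.09 ± 1.08 and 7.90 ± 0.91 CPM, a log2 fold change of 0.03 (interval -0.58 to 0.64). The overlapping gene model Gm44292 on the same strand had at most 5 counts.

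Mxi1 (ENSMUSG00000025025, chr19:53310518-53375810, plus strand), a Max interactor that opposes Myc, was low in most aged livers. Adult mice A1 to A5 had 23.3, 22.5, 23.1, 28.0 and 24.2 CPM. Old mice O1 to O5 had 16.5, 16.9, 19.9, 18.8 and 36.6 CPM, and PDX mice P1 to P5 had 14.8, 16.1, 18.0, 16.9 and 24.7 CPM. In each aged group 4 of 5 mice lay below the lowest Adult mouse, and the exceptions were O5, the highest of all 15, and P5. PDX against Adult gave a log2 fold change of -0.42 ± 0.21 (SE, interval -0.86 to 0.02, adjusted p = 0.263, edgeR), with an exact permutation p of 0.0397 that was not adjusted over the 24 such tests of the members. Old against Adult gave -0.15 (interval -0.59 to 0.28, adjusted p = 0.661, edgeR), and -0.43 without O5 (adjusted p = 0.0515, edgeR). The PDX difference passed the threshold without O5 (adjusted p = 0.0483, edgeR), where 10.9% of all genes were called, and without both O2 and O5 (log2 fold change -0.40, adjusted p = 0.0325, edgeR), where 24.6% were, although neither mouse belongs to the groups compared, since the spread was shared by all 15 mice.

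Mxd4 (ENSMUSG00000037235, chr5:34173883-34187720, minus strand), the Mxd family member typical of differentiated cells, was the only member with a pair of groups that did not overlap. Adult mice A1 to A5 had 115, 90.2, 101, 97.3 and 98.4 CPM. Old mice O1 to O5 had 69.6, 78.7, 83.7, 88.5 and 112 CPM, and PDX mice P1 to P5 had 79.7, 78.2, 87.4, 80.0 and 90.0 CPM. Every PDX mouse lay below every Adult mouse, though P5 and A2 were close at 90.0 and 90.2 CPM, and of the Old mice only O5 lay within the Adult range. The groups of PDX and Adult mice did not overlap for 1 of 8 members, against 19.9% of all genes tested. For Old against Adult this count was 0 of 8 against 8.13%, and for PDX against Old 0 of 8 against 0.342%.

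The Mxd4 mean was 100.3 ± 9.06 CPM in Adult, 86.5 ± 16.0 CPM in Old and 83.1 ± 5.30 CPM in PDX livers. PDX against Adult gave a log2 fold change of -0.27 ± 0.13 (SE, interval -0.54 to -0.01, adjusted p = 0.234, edgeR) and an exact permutation p of 0.00794, the smallest that 5 against 5 mice allow. That exact p was not adjusted and restates that the groups did not overlap. Old against Adult gave -0.21 (interval -0.48 to 0.05, adjusted p = 0.282, edgeR), and it passed the threshold at -0.33 when O5 was left out (adjusted p = 0.0419, edgeR), where 13.2% of all genes were called. PDX and Old livers differed by -0.06 (interval -0.32 to 0.21), which turned to 0.053 without O5.

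Mnt (ENSMUSG00000000282, chr11:74830920-74845725, plus strand), the repressor found in most cell types and a Max partner also in dividing cells, had the largest spread of the members among the Old mice, with an SD of 97.0% of the mean. Adult mice A1 to A5 had 26.3, 14.8, 15.0, 12.2 and 15.9 CPM. Old mice O1 to O5 had 12.3, 20.9, 29.8, 14.8 and 91.1 CPM, and PDX mice P1 to P5 had 24.9, 22.3, 32.1, 24.4 and 25.9 CPM. O5 stood far above every other mouse, while the 5 PDX mice stood together above 4 of the 5 Adult mice, all but A1. The log2 fold change of Old against Adult was 1.00 ± 0.44 (SE, interval 0.07 to 1.94, adjusted p = 0.154, edgeR), and 0.20 without O5. For PDX against Adult it was 0.62 ± 0.44 (SE, interval -0.31 to 1.55, adjusted p = 0.447, edgeR), with an exact permutation p of 0.0397. PDX against Old gave -0.38 (interval -1.31 to 0.55) in the fit and 0.03 as a difference of mean log2 CPM, and 0.42 when O5 was left out of the fit. Mnt, Mlx and Mxd4, the members whose promoters hold the E-box printed above, had unlike levels in O5, with Mnt the highest of all mice, Mlx the lowest and Mxd4 within the Adult range.

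**Figure D2:**
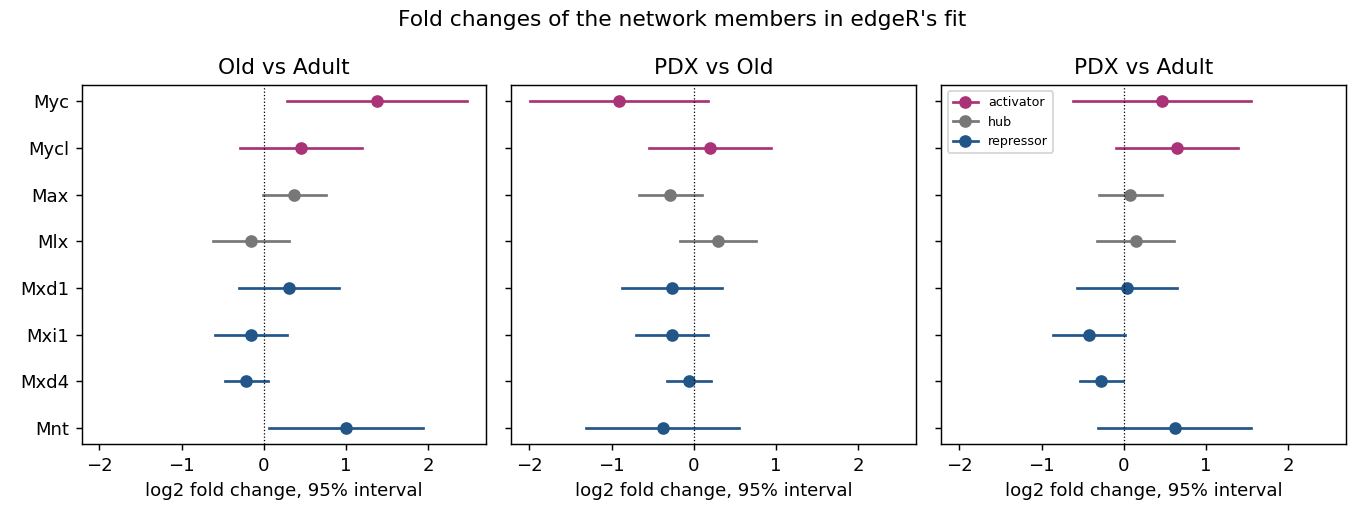
Log2 fold change of each member in the 3 comparisons (points) with its 95% interval from edgeR's fit of all 15 mice (lines), activators, hubs and repressors in different colours. The interval lies above 0 for Myc and Mnt in Old against Adult and below 0 for Mxd4 in PDX against Adult, and none of the 24 differences passed the adjusted threshold.

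When Adult and PDX livers were fitted without the Old mice, Mnt (log2 fold change 0.63, adjusted p = 0.0234), Mxd4 (-0.26, adjusted p = 0.0264) and Mxi1 (-0.41, adjusted p = 0.0332) passed the threshold in edgeR, with the spread then set by 10 mice. These 3 of 8 members stood against 29.6% of all genes called under the same setting. Age and PDX cannot be told apart in that comparison, because every PDX mouse was also old.

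Because longer transcripts collect more counts, the members were compared with each other in TPM, computed here as counts per kilobase of exon scaled to the same sum in every mouse. Unlike the CPM, these TPM carry no TMM factor, which was 1.33 in O2 and 0.88 to 1.08 in the other mice. On that scale the mean level over 15 mice was 50.0 ± 8.53 for Mlx, 27.7 ± 5.09 for Mxd4, 19.9 ± 7.45 for Max and 14.7 ± 11.9 for Mnt. It was 8.94 ± 8.26 for Myc, 8.18 ± 2.49 for Mxi1, 6.59 ± 3.11 for Mycl and 3.26 ± 1.65 for Mxd1. Each member exceeded the next in this order in 12 to 14 of 15 mice, except that Myc exceeded Mxi1 in 8 of 15. Myc and Mxi1 were thus not separated by more than their spread. The order of the upper members depended on the length taken. With the longest transcript in place of the merged exons Mlx and Mxd4 were level at 41.7 and 41.6, and Max stood at 30.3.

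The repressors outweighed the activators in every liver. The summed level of Mxd1, Mxi1, Mxd4 and Mnt was 44.8 to 61.0 TPM in Adult, 29.9 to 113 in Old and 42.4 to 58.0 in PDX livers. That of Myc and Mycl was 7.50 to 15.2, 7.43 to 40.4 and 10.0 to 20.6 TPM. Activators amounted to 14.0, 33.9, 15.0, 20.5 and 15.4% of repressors in A1 to A5. The share was 24.8, 44.8, 44.0, 20.6 and 35.8% in O1 to O5 and 22.2, 26.6, 32.5, 45.2 and 23.0% in P1 to P5. All 10 aged mice lay above 4 of the 5 Adult mice, O4 only just (20.6% against 20.5% in A4), and A2, with its high Myc, lay among the aged mice. The log2 ratio averaged -2.42 ± 0.53 in Adult, -1.62 ± 0.50 in Old and -1.79 ± 0.42 in PDX livers (SD, n = 5 each), values given without a test because they score the members jointly. In O5 both sums were the highest of the 15 mice, and its share lay between those of the other Old mice. O2 was next on both sums in TPM, but its place depended on that scale. In CPM its repressor sum lay below that of every Adult mouse. Its Mxd4 lay within the Adult range in TPM (33.2 against 26.2 to 34.7) and below it in CPM (78.7 against 90.2 to 115).

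Mxd4 made up 56.9 to 59.9% of the repressor sum in Adult livers and 49.1 to 52.1% in PDX livers. In O1 to O5 it made up 59.0, 49.9, 48.9, 60.1 and 32.8%. O1, low in Myc and Mnt, lay within the Adult range and O4, also low in both, just above it. O2 lay within the PDX range and O3 just below it, and O5, where Mnt was highest, lay below all others. Of the activator sum, Myc itself took 79.5% in O2 and 78.7% in O5, against 30.1 to 68.7% in Adult and 34.5 to 70.2% in PDX livers.

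**Figure D3:**
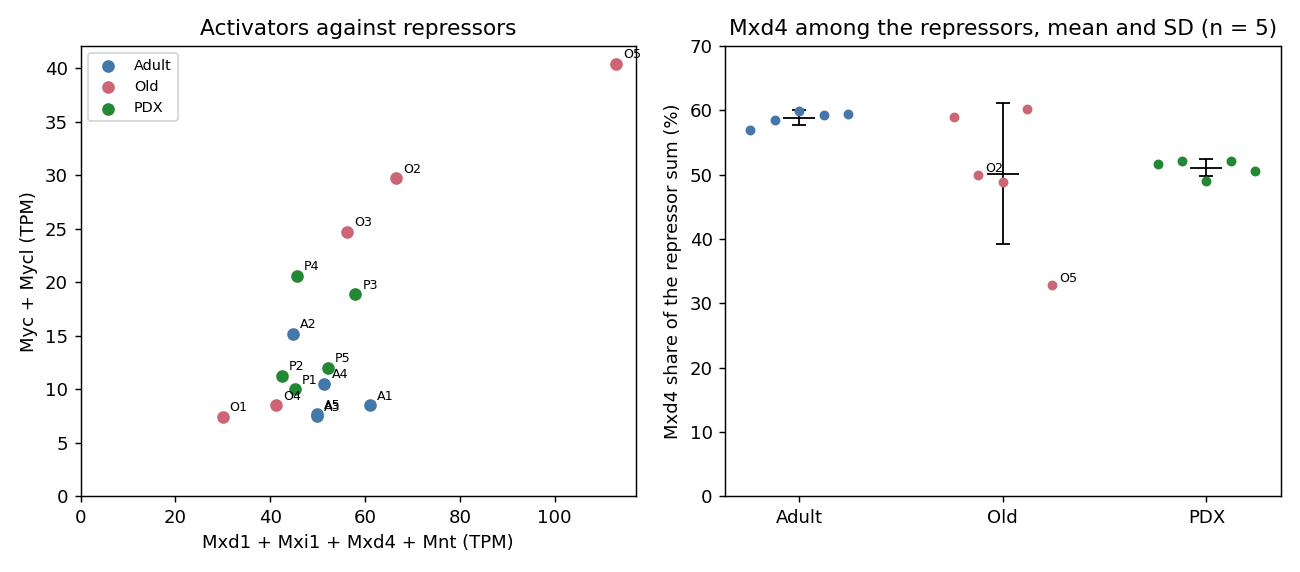
Left, summed activators against summed repressors for each mouse, both in TPM, and right, the Mxd4 share of the repressor sum per mouse with the group mean ± SD (n = 5). On this scale, which carries no TMM factor, O5 and O2 lie highest on both sums. The Mxd4 shares of Adult (56.9 to 59.9%) and PDX mice (49.1 to 52.1%) do not overlap.

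Of the remaining network genes, 4 of 5 could be tested and 0 of 4 were called by edgeR in any comparison. Mlxipl, the Mlx partner that senses glucose in hepatocytes, was the most abundant gene of the network in Adult livers, at 236 ± 29.9 TPM against 49.7 ± 4.35 for Mlx. Its level was 531, 595, 540, 387 and 520 CPM in A1 to A5, 280, 215, 413, 361 and 94.8 CPM in O1 to O5, and 344, 434, 277, 333 and 382 CPM in P1 to P5. Of the Old mice O3 alone reached the Adult range, and O5 had the lowest level of both Mlxipl and its partner Mlx. The log2 fold change of Old against Adult was -0.92 ± 0.29 (SE, adjusted p = 0.0660, edgeR), with an exact permutation p of 0.0159, and DESeq2 called it lower (adjusted p = 0.0240). PDX against Adult gave -0.54 (adjusted p = 0.307, edgeR; exact permutation p = 0.0159). Mlxip, the second Mlx partner of this kind, reached 29.2 CPM in O2 and 24.6 CPM in O5 and 7.05 to 13.8 CPM in the other 13 mice. Mga, a large Max-binding repressor, was even, at 14.5, 13.7 and 14.4 CPM in Adult, Old and PDX livers on average. Mycn averaged 0.42 to 0.48 CPM per group. Mxd3 was at most 1.81 CPM, in O2, and fell under the count filter.

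Genes known to be raised by Myc were read from a list of 45, all tested. In Old against Adult livers 4 rose and 0 fell in edgeR, against 4.71% and 2.07% of all genes, and 36 of 45 had a fold change above 0, against 56.8% of all genes. The median log2 fold change of the list was 0.32, where that of all genes tested was 0.07. The 4 were Cad, which starts pyrimidine synthesis (log2 fold change 1.23 ± 0.21 SE, adjusted p = 0.0084), the spermidine synthase Srm (1.05 ± 0.28, adjusted p = 0.0388), the chromatin-associated prothymosin Ptma (0.46 ± 0.13, adjusted p = 0.0450) and the CTP synthase Ctps (1.69 ± 0.49, adjusted p = 0.0496). DESeq2 called 8 higher, these 4 among them, and 1 lower, the purine enzyme Paics, where it called 13.5% of its genes in either direction. At an unadjusted edgeR p under 0.05 the count was 17 of 45, 16 of them higher in Old livers, against 27.7% of all genes. Of the 15 fits that each left out a mouse, all 15 called Cad, but 5 called Srm, 4 called Ptma and 3 called Ctps.

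Cad was 9.94 to 13.4 CPM in the Adult mice. It was 27.8, 28.7, 14.4, 36.0 and 31.7 CPM in O1 to O5, and 30.5, 18.9, 18.7, 21.7 and 20.7 CPM in P1 to P5. Both aged groups lay wholly above the Adult group. The Old and Adult groups did not overlap for 2 of the 45 targets, against 8.13% of all genes tested. The PDX group lay wholly above the Adult group for 6 and wholly below it for 3, where 19.9% of all genes did not overlap. High Cad was found in mice with high and with low Myc. O4 and O1, with 4.20 and 5.22 CPM of Myc, had 36.0 and 27.8 CPM of Cad, while O3, with 11.2 CPM of Myc, had the lowest Cad of the aged mice and A2, with 11.5 CPM of Myc, had 10.3 CPM of Cad. O5 and O2, the highest in Myc, had 31.7 and 28.7 CPM of Cad. Srm was 42.1 CPM in O1, 22.0 in O2, 14.1 in O3, 36.5 in O4 and 55.3 in O5, the highest of all 15 mice, against 14.0 to 18.7 CPM in Adult mice. Ctps was carried by O5, at 40.4 CPM against 3.54 to 9.86 CPM in the other 14 mice.

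In PDX against Old livers 0 of the 45 targets were called by edgeR or DESeq2, while 11 had an unadjusted edgeR p under 0.05, where 5.28% of all genes did. Of the 11, 1 was higher in PDX livers. The fold change of the targets was below 0 for 36 of 45 with a median of -0.26, and 9 of 45 lay above 0, where 40.1% of all genes did. The counts of both comparisons rest on the same Old mice. In PDX against Adult livers 1 of 45 rose, Cad (log2 fold change 0.91 ± 0.21 SE, adjusted p = 0.0314, edgeR), and 0 fell, against 1.76% and 0.898% of all genes. The fold change was above 0 for 23 of 45, against 48.4% of all genes, and the median of the list was 0.01. An unadjusted edgeR p under 0.05 was found for 7 of 45, 5 of them higher in PDX livers, against 20.6% of all genes. The call of Cad in that comparison held in 7 of the 15 fits that left out a mouse.

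Relative to the Adult mean, the mean log2 CPM of the 45 targets was -0.04 to 0.04 in Adult mice, 0.01 to 0.32 in Old mice and 0.03 to 0.15 in PDX mice. The lowest Old mouse was O3, and the other 4 Old mice lay above all PDX mice.

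Genes known to be held down by Myc gave calls in both directions. Of 10, the growth inhibitor Ndrg2 fell in Old livers, with a log2 fold change of -1.08 ± 0.23 (SE, adjusted p = 0.0205, edgeR) and no overlap between groups. The Old and Adult groups did not overlap for 1 of these 10 genes, against 8.13% of all genes tested. The matrix protein gene Thbs1 rose, at 2.31 ± 0.61 (adjusted p = 0.0383, edgeR), with 21.6 CPM in O2 and 18.2 CPM in O5 against 1.21 to 6.61 CPM in the other mice. The background was 4.71% higher and 2.07% lower, and the median of the list was 0.26. In PDX against Old and PDX against Adult livers edgeR and DESeq2 called 0 of these 10. At an unadjusted edgeR p under 0.05 the counts were 4 and 5, against 5.28% and 20.6% of all genes. Of the 4, 2 were higher in PDX livers, and of the 5, 3 were.

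Cofactors and corepressors were examined because Myc and the Mxd proteins act through them. Of 14 Myc cofactors 0 were called in any comparison by edgeR or DESeq2. In Old against Adult 12 of 14 had a fold change above 0, against 56.8% of all genes. In PDX against Old 0 of 14 did, against 40.1%, and in PDX against Adult 5 of 14, against 48.4%. Both comparisons with Old rest on the same Old mice, of which O5 had the highest mean of the cofactors, 0.57 above the Adult mean on the log2 scale. In Old against Adult 3 had an unadjusted edgeR p under 0.05, against 27.7% of all genes. The lowest p among them belonged to the acetyltransferase Kat5 (log2 fold change 0.35, adjusted p = 0.102) and the helicase Ruvbl2 (0.26, adjusted p = 0.146). Of 10 tested genes of the Sin3 and Ncor corepressor complexes edgeR called 0, and 2 of 10 had a fold change above 0 in PDX against Adult livers, against 48.4% of all genes, with a median of -0.26. The Sin3 subunits Suds3 (109 ± 13.6 CPM in Adult, 81.2 ± 14.8 in Old, 77.6 ± 14.1 in PDX) and Sap18 (17.3 ± 1.12, 12.4 ± 4.15 and 14.4 ± 1.37 CPM) had the lowest p in Old against Adult, with adjusted p of 0.0830 and 0.134 in edgeR. DESeq2 called 3 of them, Suds3, Rbbp7 and Ncor1, lower in PDX than in Adult livers, where it called 7.36% of its genes in either direction. The deviation of the list from the Adult mean was -0.28 to -0.06 in Old and -0.24 to -0.08 in PDX mice on the log2 scale, and -0.07 to 0.08 in the Adult mice.

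Genes that set the stability of the Myc protein gave no call in edgeR or DESeq2 either, with 0 of 14 in each comparison. In Old against Adult 1 had an unadjusted edgeR p under 0.05, against 27.7% of all genes. The phosphatase subunit Ppp2r5a, whose unadjusted p was above 0.05, had a log2 fold change of -0.32 in that comparison (adjusted p = 0.183, edgeR). Protein levels were not measured.

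Targets of the Mlx partners had a median below 0 in Old against Adult livers. Of 17, edgeR called 0 in Old against Adult, with 3 at an unadjusted p under 0.05, against 27.7% of all genes. DESeq2 called 3 lower, Khk, Me1 and Scd1, where it called 13.5% of its genes in either direction. The malic enzyme Me1 (69.1 ± 28.2 CPM in Old, 146 ± 14.5 in Adult, log2 fold change -1.08, adjusted p = 0.0517, edgeR) and the fructokinase Khk (256 ± 122 and 503 ± 74.7 CPM, -0.97, adjusted p = 0.0742, edgeR) did not overlap between the groups. This held for 3 of the 17 targets, against 8.13% of all genes tested. The median of the list was -0.48 in Old against Adult and 0.37 in PDX against Old, where edgeR and DESeq2 called 0 of 17. O5, with the lowest Mlx and Mlxipl, had by far the lowest mean of these targets, at -3.06 on the log2 scale below the Adult mean, against -0.81 to 0.38 in the other Old mice.

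Myc belongs to the early genes that cells switch on within minutes to hours of a stimulus, so 14 other such genes were read. In Old against Adult livers 6 of 14 rose and 0 fell, against 4.71% and 2.07% of all genes, with a median log2 fold change of 1.40. The antiproliferative gene Btg2 (2.64 ± 0.48 SE, adjusted p = 0.0110), the AP-1 subunit Jun (1.79 ± 0.42, adjusted p = 0.0280) and the zinc finger factor Egr1 (1.63 ± 0.41, adjusted p = 0.0323, all edgeR) moved most among the 6. In PDX against Adult livers 4 of 14 rose and 0 fell, against 1.76% and 0.898% of all genes, with a median of 1.01. In PDX against Old 0 were called by edgeR or DESeq2, with 2 at an unadjusted edgeR p under 0.05, against 5.28% of all genes. The mean over the list was 0.93 to 1.58 above the Adult mean in Old mice and 0.67 to 1.65 in PDX mice, and at most 0.59 in Adult mice. Single genes did not all follow the mean, since Egr1 in O5 (46.8 CPM) and Jun in P2 (43.0 CPM) and P5 (20.0 CPM) lay within the Adult range.

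**Figure D4:**
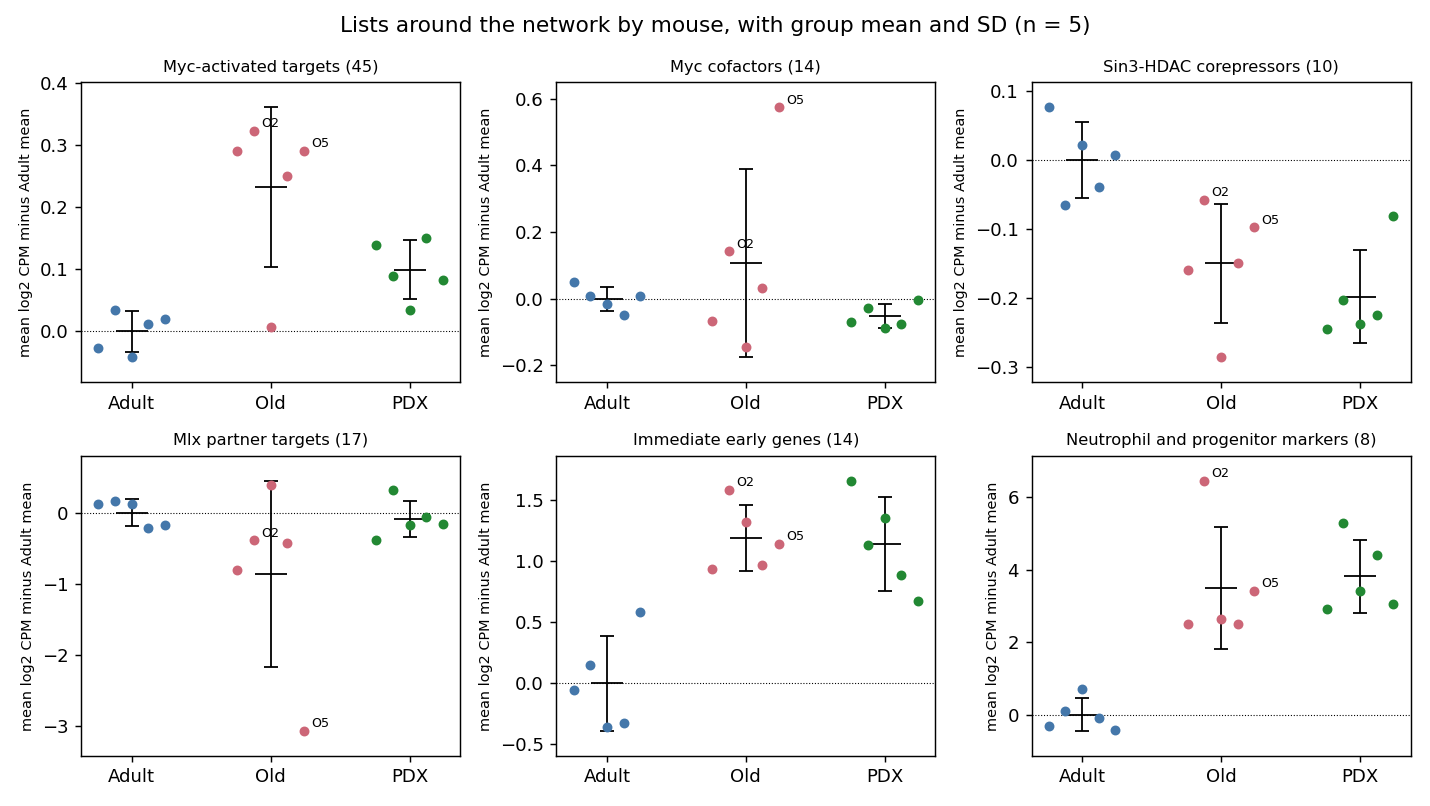
Mean log2 CPM of 6 gene lists in each mouse minus the Adult mean, with the group mean ± SD (n = 5). Of the Old mice O3 has the lowest mean of the Myc-activated targets (0.01), O5 the lowest of the Mlx partner targets (-3.06), and the mean of the early genes lies above every Adult mouse in all 10 aged mice.

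The genes whose log2 CPM followed Myc most closely over the 15 mice, among 12022 genes whose log2 CPM averaged 1 or more, were Wwp2 (Pearson r = 0.91), Gmeb1 (0.89), Fam118a (0.87), Atp6v0a1 (0.87) and Gm10052 (0.87). The points share the libraries and the group structure, and these correlations are descriptions. Without O5 and O2, the mice farthest from the median of Myc, r was 0.79, 0.81, 0.72, 0.79 and 0.69 over 13 mice. Among the members Max ranked highest for likeness to Myc by Pearson r, with r = 0.64 and rank 665 among the 12022 genes, and Mlx lowest, with r = -0.60. Without O5 and O2 these were -0.26 and 0.08. As these 2 mice were the highest for both Max and Myc, leaving them out favoured a lower r. Spearman's rank correlation over the 15 mice gave another order, with Mnt highest (0.32) and Mxd4 lowest (-0.34). By that measure Max had 0.16 and Mlx -0.30.

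The labels also give a frailty index per mouse. Of the Old mice, O5 had the highest index, 0.56, and O2 the lowest, 0.11. By the number of positive frailty criteria, also given in the labels, O2 had 3 and O5 had 4, and the other Old mice had 1 to 4.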

How the data were processed

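Liver poly(A) RNA of 15 mice (5 Adult, 5 Old, 5 PDX) was sequenced with a strand-specific kit. Per the labels and the study's methods, the authors aligned reads to mm10 with STAR 2.6.0c and counted uniquely aligned same-strand pairs per Ensembl gene with featureCounts (Subread 1.6.2), without mitochondrial genes. The authors deposited these counts (22424383 to 36070835 per mouse) and log2-scale variance-stabilized values (DESeq2 1.23.10), used here only in an alternative. Symbols were matched for 55104 of 55450 identifiers, and coordinates and exon lengths came from GENCODE on GRCm38. Counts were fitted with edgeR 4.0.16 (TMM, filterByExpr with a minimum count of 10 and minimum total of 15, quasi-likelihood test, all 15 mice, 15808 genes, Benjamini-Hochberg adjustment over all of them, threshold 0.05), and the script was tested on simulated data. Adjusted p-values are from edgeR unless DESeq2 1.42.0 or limma 3.58.1 is named. CPM are per TMM-scaled library, and log2 CPM used a prior count of 2. The study tested with DESeq2, run here as an alternative with others given at the close. Exact tests were two-sided permutations of mean log2 CPM, made for the members and the other tested network genes, and none of their p-values was adjusted. Low counts limit precision, and Myc rested on 61 to 855 counts per mouse. Each mouse is a separate animal. Members and lists were chosen with earlier results of these data known. The text names all 8 members and the rest of the network, and in each list the genes called in Old against Adult (the 3 with the largest fold change where over 5 were called, and the 2 with the lowest p where none was), plus the 5 genes most like Myc. One gene that this rule names is not reported here. Genes called by DESeq2 alone were named after their values were seen.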

Additional observations from a re-analysis of the deposited data

Results flagged for a closer look

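The 27 group-wise checks covered the members and the activator to repressor ratio. In 4 of them the highest or lowest of 5 mice passed Dixon's 95% limit, a gap to its neighbour of 0.71 of the group's range. Chance flags about 1 in 20 groups where values are normally distributed. The members were checked in CPM, in which high values lie farther apart than on the log2 scale, and only the ratio was checked on log2 values. The count of 4 can therefore not be set against that rate. Myc in the Adult group reached 11.49 CPM in A2, with the next mouse at 5.05 CPM. Mxi1 in the Old group reached 36.61 CPM in O5, with the next at 19.87 CPM. Mnt reached 26.33 CPM in the Adult mouse A1, with the next at 15.87 CPM, and 91.09 CPM in the Old mouse O5, with the next at 29.78 CPM. No PDX group was flagged.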

How the results depend on the processing

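Group sizes of 5 and the spread of the Old group limit every comparison. Leaving out 1 mouse at a time moved the members called in Old against Adult between 0 and 1 (Mxd4 without O5) and in PDX against Adult between 0 and 1 (Mxi1 without O5). It moved the Myc-activated targets called higher in Old against Adult between 1 and 10 (without O3) and in PDX against Adult between 0 and 2, and the genes called in the pathway lists other than those targets between 2 and 16. The 8 such genes became 15 with DESeq2, 2 with a replicate block and 3 with only the 2 groups compared. The 4 targets called in Old against Adult became 8 with DESeq2, 2 without the low-count filter and 1 each with the replicate block, limma on the variance-stabilized values and only the 2 groups compared. In PDX against Adult, 1 target became 8 and 0 members became 3 with only the 2 groups compared, and 7 and 1 without O2 and O5. DESeq2 called 1 member, Myc, in Old against Adult. Replicate numbers do not pair the mice. Same-numbered mice deviated together with a mean r of -0.17, 0.09 and 0.03 in Old against Adult, PDX against Old and PDX against Adult, over 5 pairs each, and the block called 0 members.

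Several uncalled fold changes turned direction without O2 and O5: in Old against Adult Max (-0.025), Mlx (0.14) and Mxd1 (-0.37), and in PDX against Old Myc (0.11), Max (0.12), Mxd1 (0.43), Mxd4 (0.051) and Mnt (0.46). Leaving out 1 mouse at a time, Mlx in Old against Adult ranged from -0.29 to 0.018 (without O5). In PDX against Old, Mxi1 ranged from -0.40 to 0.0067, Mxd4 from -0.14 to 0.053 and Mnt from -0.62 to 0.42, each highest without O5. Mnt in that comparison was 0.012 with limma and 0.026 as a difference of mean log2 CPM. Mxd1 in PDX against Adult ranged from -0.016 (without P2, and near it without A5) to 0.11. The Old minus Adult difference in log2 activators over repressors was 1.43 with Myc over Mxi1 alone, and the longest transcript moved the levels per length of Mxd4 to 41.6 and Max to 30.3. The causes were not tested. Leaving out O2 and O5 together for the ratio was chosen after seeing the data. Among the values for single members under the other settings, 526 kept their direction and side of the threshold, 16 turned direction and 10 newly passed 0.05. Those 10 include exact permutation p-values in PDX against Adult that were not adjusted, 0.0397 for Mxi1, 0.0397 for Mnt and 0.00794 for Mxd4. The rest were adjusted p-values.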
